A study of Arabidopsis thaliana with 2 samples.

Results

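FWA and its relatives belong to the class IV homeodomain-leucine zipper (HD-ZIP IV) family of plant transcription factors. The 10 genes described here are the 4 members known for imprinted expression in endosperm (FWA, HDG3, HDG8 and HDG9) and 6 members known for their role or expression in the epidermis (HDG1, HDG2, HDG11, HDG12, ATML1 and PDF2). They were named by locus under a rule that sets no threshold on measured values, and stand against 17419 loci that were listed as expressed in at least 1 library. The 6 remaining genes of the family (ANL2, GL2, HDG4, HDG5, HDG7 and HDG10) are given for comparison, so that all 16 HD-ZIP IV genes are accounted for.

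The data come from mRNA-Seq of central cells, the cells of the embryo sac that give rise to the endosperm after fertilization. Wild-type *Arabidopsis thaliana* plants of the Landsberg erecta ecotype were used at the stage of the mature, unfertilized female gametophyte, and central cells were cut from sections of emasculated flowers with a laser. There were 2 biological replicates, CC1 and CC2, each from about 450 pooled cells, and no other condition. Pooling and PCR amplification came before sequencing, so that values per cell cannot be had, and more RNA per cell cannot be told apart from a larger share of expressing cells.

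HD-ZIP IV proteins carry a homeodomain that binds DNA, a leucine zipper that lets them pair, and a START domain of the lipid-binding type. ATML1 and PDF2 specify the outermost cell layer of the shoot and bind the L1 box, a short element in the promoters of epidermal genes and of some family members. FWA is methylated and silent in most of the plant. In the central cell the DNA glycosylase DME removes that methylation, and the maternal copy of FWA stays active in the endosperm, whereas plants that lose the methylation elsewhere express FWA and flower late.

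The methylation that controls FWA lies on direct repeats around the start of the gene. FWA (AT4G25530) lies on the plus strand of chromosome 4 at chr4:13038360-13042464 of TAIR10.1, with 10 exons, of which the first 2 hold no coding sequence. In the RefSeq annotation of TAIR10.1 the coding sequence starts 952 bases after the gene start, in exon 3. One pair of repeats lies wholly before the gene, from 111 to 29 bases before its start, and is shown because it belongs to the stretch that is methylated when the gene is silent. The window is chr4:13038249-13038331, plus strand, with both copies of the repeat in capitals and the spacer in lower case.
FWA upstream repeats: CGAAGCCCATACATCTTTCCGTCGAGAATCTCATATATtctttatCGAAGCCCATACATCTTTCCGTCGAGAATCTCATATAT
The copies were identical over 38 bases, were separated by 7 bases, and held 3 CG sites each. A second, longer pair lay across the start and both non-coding exons. Its longest identical run was 63 bases, beginning 36 and 247 bases after the gene start, and shorter runs of 27 and 26 bases with nearly the same offset flanked it on either side. Methylation itself was not measured in these libraries.

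**Figure D1:**
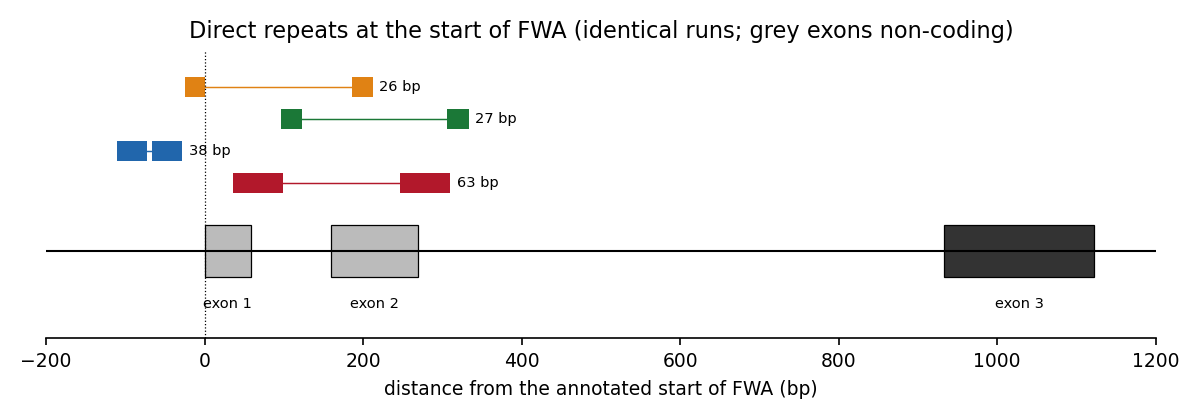
Direct repeats at the start of FWA, drawn to scale by distance from the annotated gene start in base pairs. Boxes on the line are exons (grey without coding sequence, dark with coding sequence) and coloured boxes of 1 colour are the copies of 1 identical run. The 38-base pair lies before the start, and the copies of the 63-base run begin 36 and 247 bases after it.

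FWA was the member with the highest level in both replicates. It had 6919 hits in CC1 and 4578 in CC2, where a hit is an aligned read assigned to the locus. Scaled to hits per 1000000 listed hits of the replicate (HPM), its levels were 453 HPM in CC1 and 308 HPM in CC2, or 381 ± 103 HPM (SD, n = 2). Among the listed nuclear protein-coding loci, FWA ranked 294th of 13849 in CC1 and 464th of 15693 in CC2. These ranks correspond to the 97.9th and the 97.0th percentile by HPM.

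To compare genes of different length, HPM was divided by the length of the longest annotated transcript in kilobases. On this scale FWA reached 184 HPM per kb in CC1 and 125 HPM per kb in CC2, or 154 ± 41.6 HPM per kb (SD, n = 2). The median of the listed nuclear protein-coding loci was 11.1 HPM per kb in CC1 and 8.86 HPM per kb in CC2. None of the 50-base windows of the FWA transcript occurred in another annotated transcript, and none was within 4 mismatches of another family member. Its last exon overlapped that of MSH3, a mismatch repair gene on the other strand, by 10 bases, and MSH3 had 138 hits in CC1 and 53 in CC2.

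By HPM without division by length, the levels of FWA lay close to those of genes for basic cell functions. The 5 nuclear protein-coding loci nearest to FWA by distance in log2 HPM over both replicates were NDPK3 (nucleoside diphosphate kinase 3), AT3G08610 (a subunit of NADH dehydrogenase), AT5G02450 and AT1G04480 (ribosomal proteins) and ATU2AF65A (a splicing factor). Their distances ran from 0.08 for NDPK3 to 0.12 for ATU2AF65A. Per length the levels were less alike. Mean HPM per kb was 313 for NDPK3, 606 for AT3G08610, 455 for AT5G02450, 443 for AT1G04480 and 169 for ATU2AF65A. The mean for FWA was 154 HPM per kb. With only 2 libraries, such nearness says that the genes had similar levels by HPM and nothing more.

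The other imprinted members were at far lower levels. HDG8 (AT3G03260), which like FWA is expressed from the maternal copy in endosperm, had 321 hits in CC1 and 152 in CC2. These correspond to 8.32 HPM per kb in CC1 and 4.04 HPM per kb in CC2, or 6.18 ± 3.02 HPM per kb (SD, n = 2). The level of FWA per kb was 22.1 times that of HDG8 in CC1 and 30.9 times in CC2.

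HDG3 (AT2G32370), whose paternal copy is the active one in endosperm, was listed in CC2 only, with 43 hits. Its level there was 2.89 HPM (95% exact binomial interval 2.09 to 3.90, counting error only). Per length this was 1.01 HPM per kb. At the same share of the library, CC1 would have held 44.2 hits of HDG3, well above the minimum of 5 hits for listing. A locus at this level was often listed in 1 replicate alone. Of the 1423 CC2 loci with 25 to 49 hits, 47.2% were missing from the CC1 list. Of the 914 CC1 loci with 25 to 49 hits, 21.0% were missing from the CC2 list. HDG9 (AT5G17320), maternally expressed in endosperm, was listed in neither replicate. The lists held only loci with at least 5 hits and with a hit in the last 250 bases of a transcript, so that an unlisted gene is not shown to be at 0, and 5 hits stood for 0.328 HPM in CC1 and 0.337 HPM in CC2.

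Of the epidermal members, ATML1 and PDF2 were the abundant ones. ATML1 (AT4G21750), which with PDF2 is needed for epidermal identity, had 2351 hits in CC1 and 2381 in CC2, or 39.6 ± 1.096 HPM per kb (SD, n = 2). PDF2 (AT4G04890) had 1840 hits in CC1 and 2610 in CC2, that is 36.7 HPM per kb in CC1 and 53.5 HPM per kb in CC2, with a mean of 45.1 ± 11.9 HPM per kb (SD, n = 2). ATML1 lay between both values of PDF2, and their levels therefore overlapped. FWA exceeded ATML1 per length by 4.73 times in CC1 and 3.09 times in CC2, and PDF2 by 5.01 and 2.33 times. By HPM without division by length, it exceeded ATML1 by 2.94 and 1.92 times and PDF2 by 3.76 and 1.75 times. Both transcripts are longer than that of FWA, and with 3′ biased libraries their levels per kb may be understated.

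The hits of ATML1 and PDF2 were not fully separable. Both genes had fractional hits in both replicates, yet their hits summed to whole numbers, to 4191 in CC1 and 4991 in CC2, within the decimals given. The authors shared out hits that fitted several loci, and how many reads of this pair were shared was not tested. Of the 18 coding windows in which the transcripts come closest, 1 is shown to let the reader judge how alike they are over the length of a read. It lies at chr4:11557115-11557164 (plus strand) in ATML1 and at chr4:2479891-2479940 (minus strand) in PDF2, both in TAIR10.1, with the differing bases in capitals.
ATML1 window: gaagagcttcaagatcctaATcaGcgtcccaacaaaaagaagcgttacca
PDF2 window: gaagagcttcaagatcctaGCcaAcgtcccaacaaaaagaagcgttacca
These windows differed at 3 of 50 bases. In all, 123 windows of 50 bases were within 4 mismatches between the transcripts, and none was within 2. Together the genes had 275 HPM in CC1 and 336 HPM in CC2, a sum that stays the same however hits are divided within the pair, and ATML1 held 56.1% of it in CC1 and 47.7% in CC2.

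HDG2 (AT1G05230), which acts in epidermal differentiation and stomata, had 493 hits in CC1 and 229 in CC2, or 6.54 ± 3.29 HPM per kb (SD, n = 2). HDG12 (AT1G17920), which acts with HDG11 in trichomes, had 204 hits in CC1 and 128 in CC2, or 3.44 ± 1.05 HPM per kb (SD, n = 2). Both genes overlap an annotated long noncoding RNA on the opposite strand, by 900 and 280 exonic bases, and without strand information reads from either strand cannot be told apart there. Neither noncoding locus was in the deposited lists. The authors used another annotation, and whether it held these loci was not tested. Their absence from the lists therefore does not show that they were not expressed.

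The remaining epidermal members were near the bottom of the range. HDG1 (AT3G61150), which is expressed in the epidermis and affects the cuticle, had 47 hits in CC1 and 30.5 in CC2, or 0.816 ± 0.231 HPM per kb (SD, n = 2). Its value in CC2 was fractional, and it summed with that of HDG2 (30.4825 and 228.518 hits) to 259, a whole number within the decimals given. No 50-base windows of these transcripts were within 4 mismatches, and how hits came to be divided here was not tested. HDG11 (AT1G73360), known for its role in trichome branching, was listed in CC2 only, with 18 hits. Its level there was 1.21 HPM (95% exact binomial interval 0.718 to 1.91, counting error only) and 0.346 HPM per kb. Of the 1081 CC2 loci with 10 to 24 hits, 58.2% were not in the CC1 list, and of the 583 such CC1 loci 27.3% were not in the CC2 list.

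**Figure D2:**
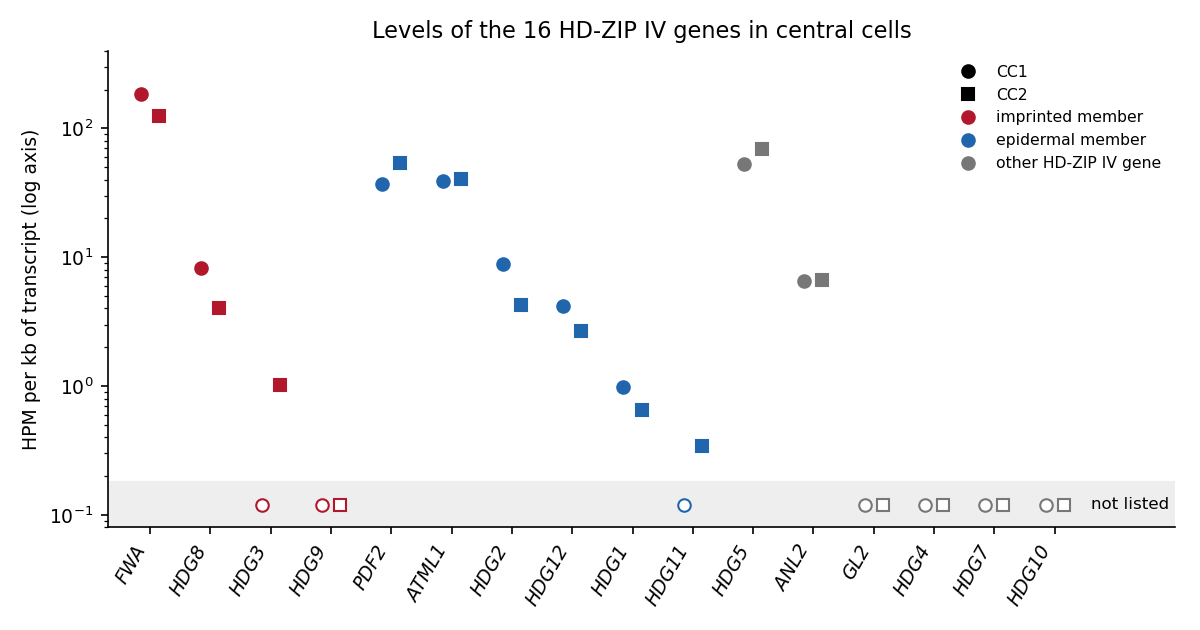
Levels of the 16 HD-ZIP IV genes in HPM per kb of transcript on a log axis, 1 point per replicate (circles CC1, squares CC2), coloured by set. Open symbols in the grey band mark genes not in the list of that replicate and carry no value. FWA stands above all others at 184 and 125 HPM per kb, and HDG9, GL2, HDG4, HDG7 and HDG10 were listed in neither replicate.

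Altogether 7 of the 10 members were listed in CC1 and 9 in CC2, against 50.5% and 57.2% of the 27444 nuclear protein-coding loci of the annotation. Listed in at least 1 replicate were 9 members, against 60.5% of all such loci, and listed in both were 7, against 47.2%. Over all 16 HD-ZIP IV genes, 11 were listed in at least 1 replicate and 9 in both. The members that were not listed in both comprised 2 of the 4 imprinted genes (HDG3 and HDG9) and 1 of the 6 epidermal genes (HDG11).

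By mean HPM per kb, the 9 family genes listed in both replicates fell into 4 steps. FWA came first, and its 2 values lay above both values of HDG5, the next gene. HDG5, PDF2 and ATML1 formed the second step, in which the replicate ranges of neighbours overlapped. ANL2, HDG2, HDG8 and HDG12 formed the third, again with overlapping neighbours and with a gap to ATML1 above them. HDG1 stood alone at the lower end. By HPM without division by length, FWA again came first, HDG5 lay above ATML1 without overlap, and ANL2 lay above HDG8 without overlap.

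The comparison of imprinted with epidermal members was made on summed levels, with an unlisted gene entered as 0. The imprinted members summed to 192 HPM per kb in CC1 and 129.9 HPM per kb in CC2, or 161 ± 43.9 HPM per kb (SD, n = 2). The epidermal members summed to 89.5 HPM per kb in CC1 and 102 HPM per kb in CC2, or 95.6 ± 8.62 HPM per kb (SD, n = 2). The values of the imprinted members lay above those of the epidermal members in both replicates, whereas with medians over members in place of sums the log2 ratio was -0.65 in CC1 and -0.45 in CC2. The log2 ratio of the imprinted over the epidermal sum was 1.101 in CC1 and 0.352 in CC2, or 0.73 ± 0.53 (SD, n = 2).

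Few genes carried either side of that comparison. FWA made up 95.7% of the imprinted sum in CC1 and 96.1% in CC2, and HDG8 4.33% and 3.11%. ATML1 and PDF2 together made up 84.3% of the epidermal sum in CC1 and 92.2% in CC2. Without FWA, an alternative added after the data were seen, the log2 ratio was -3.43 in CC1 and -4.33 in CC2, so that the direction turned. The direction in CC2 also depended on length: the log2 ratio there was -0.18 without division by length and -0.05 with coding length, while in CC1 it was 0.55 and 0.68. No test was made between the sets, because genes are not replicates and there was 1 condition.

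**Figure D3:**
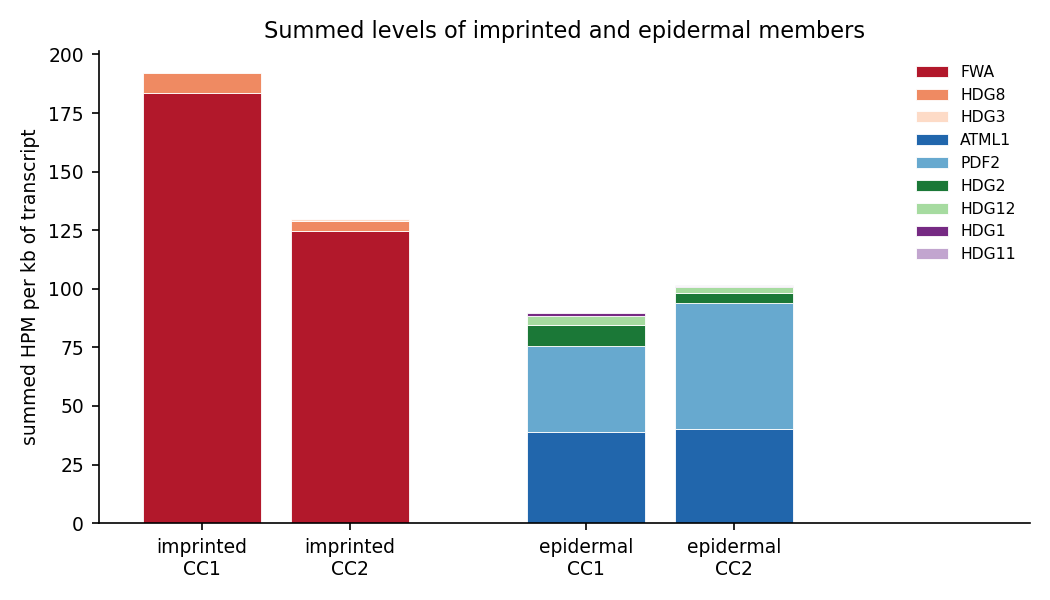
Summed levels of the imprinted and the epidermal members in HPM per kb of transcript, 1 bar per replicate, stacked by gene. The imprinted bars reach 192 in CC1 and 129.9 in CC2 and are nearly all FWA, and the epidermal bars reach 89.5 and 102 and are mostly ATML1 and PDF2.

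The family outside these members added 1 abundant gene. HDG5, which acts with HDG2 and PDF2 in flower development, had 2625 hits in CC1 and 3346 in CC2, or 61.3 ± 11.6 HPM per kb (SD, n = 2). It exceeded ATML1 by 1.37 times per length in CC1 and by 1.72 times in CC2, and FWA exceeded HDG5 by 3.46 and 1.80 times. By HPM without division by length, HDG5 exceeded ATML1 by 1.12 and 1.41 times, and FWA exceeded HDG5 by 2.64 and 1.37 times. ANL2, which acts in anthocyanin accumulation and root cells, had 341 hits in CC1 and 334 in CC2, or 6.60 ± 0.0271 HPM per kb (SD, n = 2). GL2, the regulator of trichomes and root hairs, and HDG4, HDG7 and HDG10 were listed in neither replicate. HDG7 overlaps 3 genes on the opposite strand, by up to 1571 exonic bases, and how hits were divided between these neighbours was not tested.

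All 16 genes together took 992 HPM in CC1 and 932 HPM in CC2, or 962 ± 42.6 HPM (SD, n = 2). FWA held 45.7% of these hits in CC1 and 33.1% in CC2. HDG5 held 17.3% and 24.2%, ATML1 15.5% and 17.2%, and PDF2 12.2% and 18.8%. The family total thus differed less between replicates than the share of FWA in it.

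Relatedness in protein sequence was set beside the levels. Identity was taken over aligned residues of the longest protein of each gene. ATML1 and PDF2, with 91.7% identity and 57 of 60 homeodomain residues shared, were the closest pair, and their levels overlapped. HDG11 and HDG12 shared 75.8%, and in CC2 HDG12 had 7.80 times the level of HDG11 per length. HDG2 was closest to ATML1 at 75.5%, yet its level was in the third step of the order.

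Other related pairs were listed together, singly or not at all. HDG1 and ANL2, at 68.0% identity, were both listed in both replicates. HDG9 and HDG10, at 69.2% identity, were both unlisted, and 18 windows of 50 bases were within 2 mismatches between their transcripts. HDG4 and HDG5 shared 65.0%, and only HDG5 was listed. HDG3 was closest to HDG2 at 58.2%, and of this pair HDG2 was listed in both replicates and HDG3 in CC2 only. FWA had no close relative in the family: HDG7, at 48.8%, was the nearest and was unlisted. The lowest identity of FWA, with HDG10, was 32.4%. This was not particular to FWA, since the nearest relative of GL2, ATML1, stood at 45.2%. Between 23 and 30 of the 60 homeodomain residues of FWA were shared with any other family member.

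**Figure D4:**
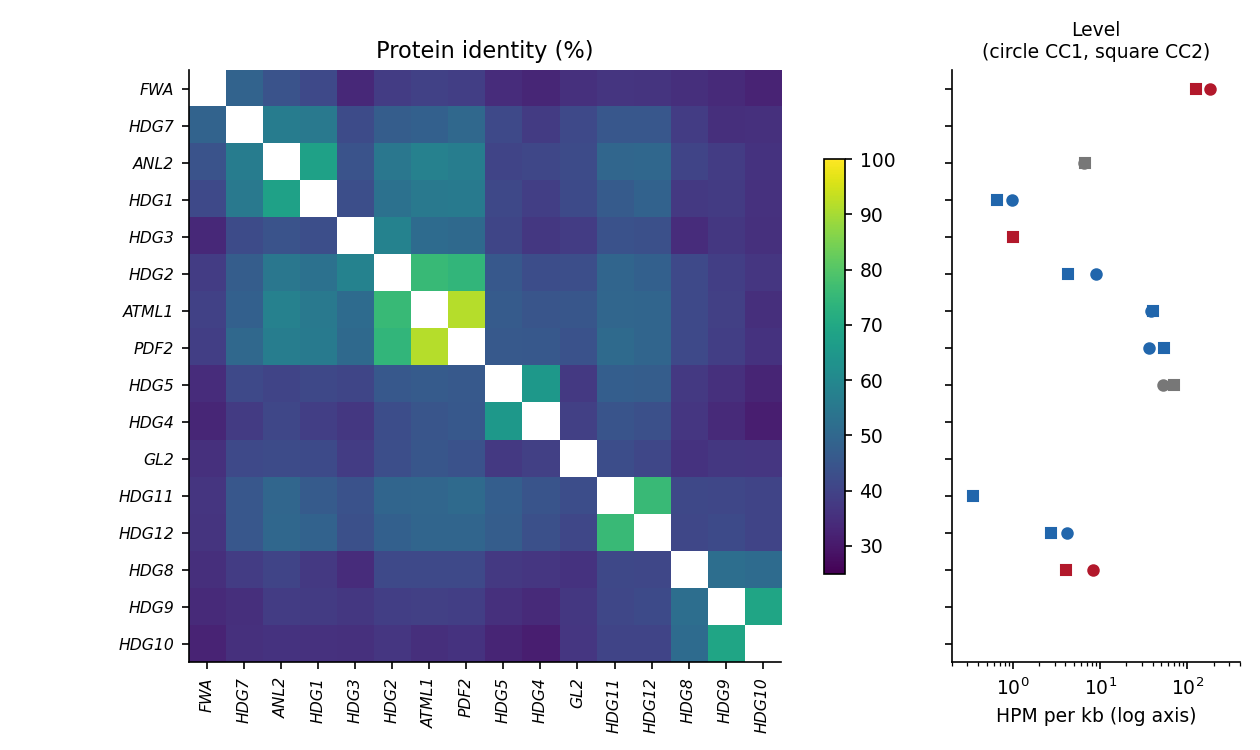
Left, protein identity in percent between the 16 HD-ZIP IV genes; right, level of each gene in HPM per kb on a log axis, 1 point per replicate, with no point where a gene was not listed. FWA has no identity above 48.8% and the highest level, and GL2 has no identity above 45.2%. ATML1 and PDF2 share 91.7% and have overlapping levels.

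The part of the homeobox that encodes the recognition helix shows the same divergence at the DNA level. The helix lies in the major groove of the bound DNA, and the 51 coding bases for homeodomain residues 42 to 58 are given here with each base that differs from ATML1 in capitals. An intron interrupts the stretch in each of these genes, so that the genomic spans in TAIR10.1 are longer: chr4:11557362-11557714 (plus) for ATML1, chr4:2479520-2479690 (minus) for PDF2, chr1:1516007-1516634 (minus) for HDG2, chr3:758806-758944 (minus) for HDG8 and chr4:13039673-13039919 (plus) for FWA.
ATML1: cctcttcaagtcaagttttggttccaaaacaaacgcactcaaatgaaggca
PDF2: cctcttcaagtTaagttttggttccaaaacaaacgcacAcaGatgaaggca
HDG2: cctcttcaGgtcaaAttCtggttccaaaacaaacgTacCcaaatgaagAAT
HDG8: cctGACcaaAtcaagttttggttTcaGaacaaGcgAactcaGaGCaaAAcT
FWA: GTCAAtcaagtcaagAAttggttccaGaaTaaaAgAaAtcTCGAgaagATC
PDF2 differed from ATML1 at 3 bases and 0 of the 17 residues. HDG2 differed at 8 bases and 1 residue, HDG8 at 14 bases and 4 residues, and FWA at 19 bases and 7 residues. HDG3, HDG9, HDG11 and HDG12 each differed at 4 residues and HDG1 at 3, so that FWA was the farthest of the 10 members from ATML1 in this helix.

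L1 boxes were sought as TAAATGCA or TAAATGTA on either strand in the 1000 bases before the annotated start of each gene. Among all nuclear protein-coding genes, 15.8% held at least 1 in that window. The element was found before 2 of the 6 epidermal members, HDG2 and ATML1, and before 1 of the 4 imprinted members, HDG8. The 28 bases around each are given in the direction of the gene with the element in capitals, because this is the site that ATML1 and PDF2 are known to bind. They lie at chr1:1518990-1519017 (minus) for HDG2, chr4:11554520-11554547 (plus) for ATML1 and chr3:759648-759675 (minus) for HDG8.
HDG2 L1 box: atctaatagaTAAATGTAagtctcatag
ATML1 L1 box: tataacagtaTAAATGTAtaatgaggac
HDG8 L1 box: ctttcaaaaaTACATTTAataattataa
The element stood 107 bases before the start of HDG2, 509 before that of ATML1 and 383 before that of HDG8, where it was on the other strand. No match was found before FWA, PDF2 or the other members in this window. Members with and without the element occurred at both high and low levels: PDF2 and FWA had none in the window, and HDG2 and HDG8 were in the third step of the order.

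The replicates did not differ in the same direction for all members. Of the 7 members listed in both, 5 were higher in CC1 (FWA, HDG8, HDG1, HDG2 and HDG12) and 2 in CC2 (ATML1 and PDF2), against 53.5% of all nuclear protein-coding loci listed in both that were higher in CC1. The log2 ratio of CC2 over CC1 in HPM was -0.56 for FWA, 0.06 for ATML1 and 0.54 for PDF2. More than 2-fold higher in CC1 were 2 members, HDG2 by 2.10-fold and HDG8 by 2.06-fold, against 15.2% of all loci, and no member was more than 2-fold higher in CC2, against 14.6%. With edgeR's TMM factors the log2 ratios of HDG2 and HDG8 were -0.99 and -0.96, which is less than 2-fold. With DESeq2 size factors they were -1.01 and -0.97, and with scaling to nuclear hits both remained over 2-fold at -1.08 and -1.05.

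These differences were then read against loci of similar abundance. The median difference between replicates was 1.497-fold over all loci and 1.21-fold in the most abundant 20% of them, to which FWA, ATML1 and PDF2 belong. In that class 20.4% of loci differed by more than FWA, 21.3% by more than PDF2 and 88.7% by more than ATML1. In their own abundance classes of the same size, 26.7% of loci differed by more than HDG2, 43.7% by more than HDG8, 63.4% by more than HDG12 and 71.2% by more than HDG1.

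**Figure D5:**
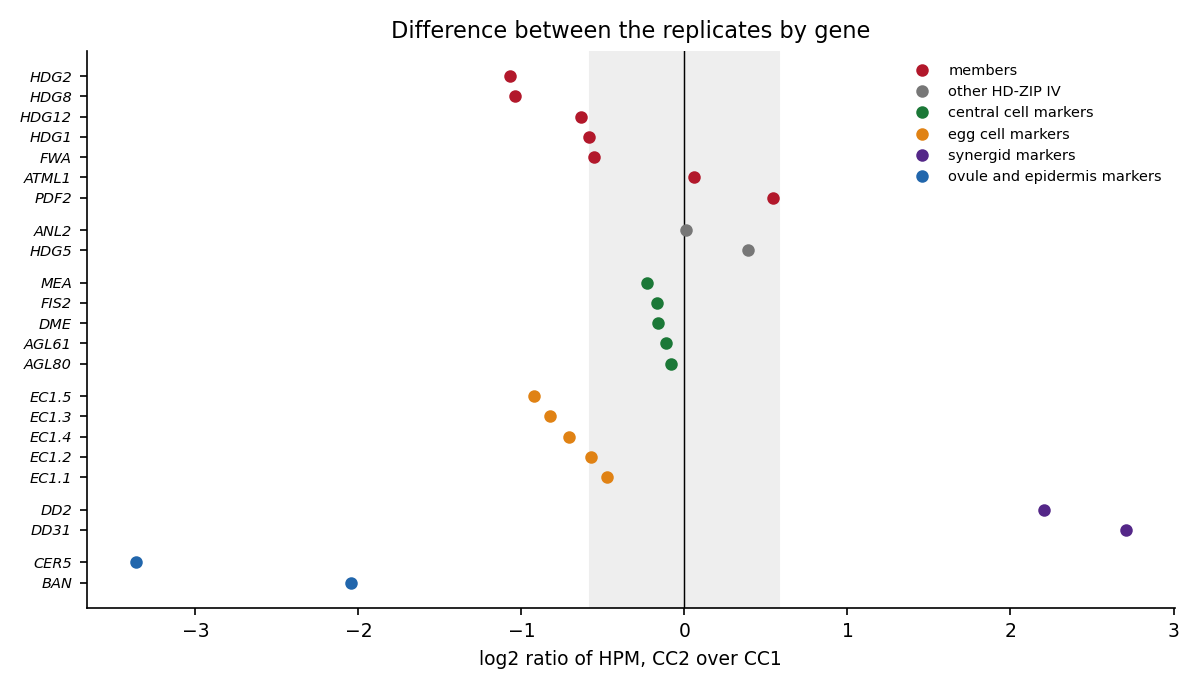
Log2 ratio of HPM in CC2 over CC1 for the members, the other HD-ZIP IV genes and the marker lists of cell types near the central cell, 1 point per gene listed in both replicates. The grey band spans the median difference of all loci (1.497-fold) on either side of 0. FWA lies at -0.56, the egg cell markers all lie below 0 and the synergid markers both lie above 2.

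Markers of the central cell and of its neighbours were counted beside these values. All 5 central cell markers (FIS2, MEA, AGL80, AGL61 and DME) were listed in both replicates, with summed levels of 1119 HPM in CC1 and 993 HPM in CC2, and each was higher in CC1. All 5 EC1 genes of the egg cell were listed in both and summed to 1355 HPM in CC1 and 902 HPM in CC2, and each of these was higher in CC1 as well. Of the 3 synergid markers, DD31 and DD2 summed to 83.9 HPM in CC1 and 452 HPM in CC2, and MYB98 was unlisted in both. Of 8 ovule and epidermis markers, 2 were listed in CC1 (9.57 HPM in all) and 5 in CC2 (29.4 HPM in all). INO, BEL1 and ACR4 were listed in neither. Of all nuclear protein-coding loci, 50.5% were listed in CC1, 57.2% in CC2 and 47.2% in both. The part of neighbouring cells in the levels of the members was not tested.

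Genes that act with ATML1 and PDF2 in the epidermis, or are their targets, were counted in the same way. PDF1, ACR4, FDH and CER5 among them are also in the list of ovule and epidermis markers, so that both counts share these genes. Of 9 such genes, 3 were listed in CC1 and 6 in CC2, against 50.5% and 57.2% of all nuclear protein-coding loci. LTP1, a lipid transfer protein of the epidermis, was the highest of them, with 432 hits in CC1 and 434 in CC2. Per length these were 34.0 and 35.1 HPM per kb, beside 38.8 and 40.3 HPM per kb for ATML1. The longest transcript of LTP1 has 832 bases and that of ATML1 has 3972. By HPM without division by length, LTP1 had 28.3 in CC1 and 29.2 in CC2, against 154 and 160 for ATML1. PDF1, a protodermal gene whose promoter carries an L1 box, was listed in CC2 only, with 100 hits, as were FDH and CER6, enzymes of wax and fatty acid synthesis, with 141 hits each. CER5, a wax transporter, had 74 hits in CC1 but 7 in CC2, whereas DEK1, a calpain needed for epidermal fate, had 13 and 171. The receptor kinases ACR4 and ALE2 and the cuticle regulator CFL1 were listed in neither. The 3 genes of the list found in both replicates (LTP1, CER5 and DEK1) thus did not share a direction between the replicates.

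Of 6 chosen genes that act in setting or removing DNA methylation, 5 were listed in at least 1 replicate, against 60.5% of all nuclear protein-coding loci. DME had 4563 hits in CC1 and 3967 in CC2, or 283 ± 22.7 HPM (SD, n = 2), and lay at 43.0 HPM per kb in CC1 and 38.3 HPM per kb in CC2. The maintenance methyltransferase MET1 had 336 and 332 hits, and the level of DME per length was 9.87 times that of MET1 in CC1 and 8.67 times in CC2. The chromatin remodeller DDM1 had 213 hits in CC1 and 101 hits in CC2, and AGO4 of the RNA-directed pathway 197 and 68. The de novo methyltransferase DRM2 was listed in CC2 only, with 198 hits. ROS1, the glycosylase that demethylates DNA in vegetative tissue, was listed in neither replicate.

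Of 8 other imprinted genes, 3 were listed in at least 1 replicate, against 60.5% of all nuclear protein-coding loci and 3 of the 4 imprinted family members. MEA and FIS2, maternally expressed subunits of the Polycomb complex of the seed, were listed in both replicates: MEA had 4670 hits in CC1 and 3877 hits in CC2, and FIS2 had 4856 and 4201. FWA exceeded MEA by 1.405 times per length in CC1 and 1.12 times in CC2, and FIS2 by 1.51 and 1.16 times. MPC was listed in CC2 only, with 42 hits. PHE1, AGL36, VIM5, YUC10 and SUVH7 were listed in neither replicate. FT, the flowering signal to which ectopic FWA protein binds, was also unlisted in both.

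The related HD-ZIP III family, whose members share the START domain and pattern leaves and vasculature, was at low levels. Of its 5 genes, REV had 180 hits in CC1 and 87.7 in CC2, ATHB15 had 111 and 8.75, and PHB was listed in CC2 only, with 43 hits. PHV and ATHB8 were listed in neither. The family summed to 19.1 HPM in CC1 and 9.38 HPM in CC2, against 992 and 932 HPM for the HD-ZIP IV family.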

How the data were processed

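Central cells of 1 condition were profiled in 2 replicates. Reads of 50 bases from the SOLiD platform were error-corrected by the authors and mapped to TAIR10 with TopHat 1.2. Reads with several alignments were weighted and hits on several loci shared out, so that the deposited values are estimated counts (expected counts of hits per locus), not normalized. Libraries were primed at the poly(A) tail, 3′ biased and not stranded. The lists held 15257122 hits over 14454 loci in CC1 and 14857500 over 16391 in CC2. No column was left unused.

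From these values, HPM and HPM per kb (longest transcript) were computed, with mean and SD. No test was made, as there was 1 condition. Gene models and sequences came from RefSeq's TAIR10.1 genome, whose annotation differs from that used by the authors, and 156 listed loci had no match. Reads came from Landsberg erecta, the sequences from Columbia. Proteins were aligned globally (BLOSUM62, Biopython 1.88). Intervals are exact 95% binomial limits of single values. They cover counting error only, as amplified reads are not independent molecules. In sums, unlisted loci entered as 0.

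The members, gene lists and markers were chosen with earlier results of these data known. The genes named are the members, every gene of these lists and the 5 loci nearest to FWA. Alternatives were other scalings (edgeR 4.0.16 TMM and DESeq2 1.42.0 size factors on hits rounded to whole numbers, tested on simulated data), no or coding length, hit minimums of 10 and 20, thinning, medians and single replicates. Python 3.11.15, numpy 2.4.6, pandas 2.3.3, scipy 1.17.1, matplotlib 3.10.9 and R 4.3.3 were used.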

Additional observations from a re-analysis of the deposited data

How the results depend on the processing

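Without division by transcript length, the imprinted members summed to 398 HPM and the epidermal members to 343 HPM, and the log2 ratio of both sums fell to 0.19. With coding length, the epidermal sum was 153 HPM per kb. The log2 ratio of imprinted over epidermal members was negative with medians in place of sums (-0.55) and without FWA (-3.88). Against all 12 other HD-ZIP IV genes, it averaged -0.0447, with 0.364 in CC1 and -0.453 in CC2, so that the replicates differed in sign. The latter 2 alternatives were chosen after seeing the data. With single replicates, the imprinted sum ran from 129.9 to 192 HPM per kb, the epidermal sum from 89.5 to 102 HPM per kb, the log2 ratio from 0.352 to 1.101 and the number of listed members from 7 to 9. A hit minimum of 20 left 8 members listed. Coding length was tried for the sums and their ratio and not for single members. No paired analysis was possible because there was 1 group, so that no other group shared its replicate numbers. With 2 replicates of amplified RNA and a 3′ bias, levels of genes with long transcripts per kb may be understated. HDG3 and HDG11, which were listed in CC2 only, cannot be called absent from CC1. The authors reported that the cDNA of CC1 was somewhat shorter and of lower yield than that of CC2. Whether this library difference bears on unlisted genes or on levels of long transcripts was not tested.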
